A study of Mus musculus with 12 samples.

Results

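CXC chemokines are small secreted or membrane-bound proteins that steer the movement of leukocytes and glial precursors, and the 7 mouse genes chosen by symbol here were the ligands Cxcl9, Cxcl10, Cxcl12, Cxcl13, Cxcl14 and Cxcl16 and the receptor Cxcr4. Of these 7 genes, 5 were followed among the 15584 rows of the deposited table, and Cxcl9 and Cxcl13 are not analysed here. RNA came from mouse corpus callosum, the white matter tract that joins the hemispheres of the brain, in 12 libraries. The labels name 2 genotypes, wild type (WT) and AHR CKO, and 2 treatments, control (Ctrl) and cuprizone (CPZ), which gave 4 groups of 3 libraries. AHR CKO mice lack the aryl hydrocarbon receptor (AHR), a ligand-activated transcription factor, in microglia, per the series design. Cuprizone is a copper chelator that kills oligodendrocytes, the cells that make myelin. The sources used here name neither the Cre line, nor the cuprizone dose and duration, nor the age and sex of the mice. They do not say whether each library came from a separate animal, so the p-values measure the spread between these libraries, which may be technical.

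CXC ligands bind G protein-coupled receptors, and gradients of a ligand draw cells that carry its receptor. Cxcl10 is induced by interferons and attracts T cells and natural killer cells through Cxcr3. Cxcl16 is made as a transmembrane protein that metalloproteases can release, and it binds Cxcr6. Cxcl12 is made constitutively in many tissues and binds Cxcr4 and the scavenging receptor Ackr3. In brain, Cxcl12 and Cxcr4 are known for guiding the migration and maturation of precursor cells, and Cxcl14 is a conserved chemokine whose receptor is less settled.

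Values are FPKM (fragment counts divided by transcript length and library size), and tests used log2(FPKM + 1) in limma with Benjamini-Hochberg adjustment over 13759 genes that reached 1 FPKM in at least 3 of the 12 libraries. A gene is called changed where the adjusted p is under 0.05. On this scale a log2 change understates the change of a low gene, and folds given below are ratios of mean FPKM. FPKM summed to between 447156 and 519470 per library, and the steps between the lowest values gave a rough estimate of 11100000 to 15100000 fragments per library. Of the markers of white matter, oligodendrocyte genes such as Mal stood between 322 and 688 FPKM in the 6 control libraries. Mal fell with cuprizone, to between 34.0 and 46.4 FPKM in WT and between 54.0 and 67.5 FPKM in AHR CKO. The libraries also held much RNA of neurons. The 8 genes of excitatory neurons and synapses summed to 2873 to 4921 FPKM over the 12 libraries and the 9 of inhibitory interneurons to 894 to 1797 FPKM. The 8 striatal neuron genes summed to 621, 962 and 2669 FPKM in WT control, 569, 429 and 869 FPKM in WT cuprizone, 1977, 1753 and 1243 FPKM in AHR CKO control and 1586, 1576 and 812 FPKM in AHR CKO cuprizone, so striatal content varied within groups and was high in WT control 3 and in most AHR CKO libraries. No striatal gene was called in any of the 5 comparisons, and the part of neuronal RNA in the results below was not tested. Ahr itself lay between 1.41 and 2.57 FPKM in all 12 libraries and was not called between genotypes (adjusted p = 0.97 in control and 0.937 in cuprizone tissue). This whole-tissue value does not check the labels, since the deleted part of the gene and the other cells that express it are not resolved here.

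The AHR CKO libraries did not form a uniform set for Cx3cr1, the fractalkine receptor of microglia, which is named here after its values were seen. Cx3cr1 stood at 24.9, 24.4 and 22.6 FPKM in WT control and at 69.4, 49.4 and 58.7 FPKM in WT cuprizone. In AHR CKO it was 1.05, 9.6 and 0.801 FPKM in control and 1.16, 22.7 and 29.6 FPKM in cuprizone libraries 1 to 3. AHR CKO control 1, control 3 and cuprizone 1 thus lay under 2 FPKM, and the other 3 lay well above it. Csf1r, the microglial receptor for colony-stimulating factor 1, was 30.2, 28.8 and 26.5 FPKM in the AHR CKO control libraries and 39.6, 71.2 and 80.7 FPKM in the AHR CKO cuprizone libraries, so the control libraries did not part for it while cuprizone 1 was lowest. The cause was not tested, and results below that differ between these 2 sets of AHR CKO libraries are given with each set.

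Cxcl10 rose with cuprizone in both genotypes, and cuprizone tissue of AHR CKO held more of it than that of WT. It lies on the minus strand of chromosome 5 (GRCm38, chr5:92346638-92348889), inside the span of Art3 on the opposite strand. The sources used here do not state whether counting used strand, so reads of the pair may not be fully separated, but Art3 lay between 1.64 and 3.68 FPKM in all libraries and no change of it was called. The 250 bases before the start of Cxcl10 (RefSeq, GRCm38.p6, chr5:92348890-92349139, minus strand, printed 5′ to 3′ along the gene) are shown because the data bear on a gene that interferon and NF-kB signals are known to switch on. Capitals mark, in order, the reverse complement of the AHR core GCGTG, an interferon-stimulated response element (GAAA, any 2 bases, GAAA), and an NF-kB site (GGGA, any base, TT, any base, CC).
Cxcl10 promoter: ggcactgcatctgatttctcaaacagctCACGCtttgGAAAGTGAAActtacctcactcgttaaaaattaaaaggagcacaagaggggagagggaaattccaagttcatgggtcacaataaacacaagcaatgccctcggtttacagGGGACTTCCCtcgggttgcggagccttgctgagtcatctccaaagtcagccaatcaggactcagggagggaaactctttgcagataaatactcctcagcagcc

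The interferon element lies 213 to 204 bases before the start, the NF-kB site 103 to 94 bases before it and the AHR core 222 to 218 bases before it. Searched on both strands in 32851 promoter windows of the same length from 27025 genes, the interferon element occurred in 2.98% and the NF-kB site in 0.98% of windows, whereas the short GCGTG occurred in 28.2%. None of the marked matches overlaps another. These matches describe letters only, not binding, and looser forms of the motifs were not searched for.

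In WT control tissue Cxcl10 was 3.30, 0.733 and 0.198 FPKM in libraries 1 to 3 (1.41 ± 1.66, SD, n = 3). It was 0.196, 0.191 and 0.399 FPKM in AHR CKO control (0.262 ± 0.119, SD, n = 3). WT control 1 stood apart from the other 5 control libraries, which were all under 1 FPKM. At the estimated depth these values correspond to about 40, 9.77 and 2.62 fragments in WT control and to 2.84, 2.75 and 5.52 fragments in AHR CKO control, so control levels are near the limit of detection.

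With cuprizone, Cxcl10 reached 12, 7.51 and 15.1 FPKM in WT (11.6 ± 3.82, SD, n = 3) and 28.9, 39.5 and 49.1 FPKM in AHR CKO (39.2 ± 10.1, SD, n = 3). Every cuprizone library lay above every control library, and every AHR CKO cuprizone library lay above every WT cuprizone library. The rise was 2.55 on the log2 scale in WT (SE 0.38, adjusted p = 0.000567), an 8.19-fold difference of means. In AHR CKO the rise was 4.96 (95% interval 4.13 to 5.80, adjusted p = 1.22e-05). The corresponding 149-fold difference of means rests on a control level of a few fragments and is imprecise. Without WT control 1 the rise in WT was 3.07 (adjusted p = 7.76e-05).

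Between genotypes, cuprizone tissue of AHR CKO held 3.39-fold more Cxcl10 than that of WT (log2 difference 1.69, 95% interval 0.86 to 2.53, adjusted p = 0.0137). Control libraries of the 2 genotypes overlapped, and the difference there was not called (−0.72, adjusted p = 0.242). The call in cuprizone tissue held in each fit that left out 1 library (adjusted p 0.00654 to 0.0407), and was lost with a pseudocount of 0.1 (1.78, adjusted p = 0.0722). Against the AHR CKO libraries with Cx3cr1 over 2 FPKM alone the difference was 1.89 (adjusted p = 0.0615), and against those under 2 FPKM it was 1.30 (adjusted p = 0.159), each with fewer libraries. The rise under cuprizone within AHR CKO was called in either set (5.24, adjusted p = 0.00403, and 4.53, adjusted p = 0.0139).

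Whether cuprizone raised Cxcl10 more in AHR CKO than in WT was tested as an interaction, and it was not called (2.42, 95% interval 1.23 to 3.60, unadjusted p = 0.00078, adjusted p = 0.2). Only 5 of 13759 genes (0.0363%) were called for the interaction. For Cxcl10 the interaction was called without WT control 3 (2.81, adjusted p = 0.0305). That library had the least Cxcl10 of WT control and the highest striatal sum of all libraries. Without it 103 genes were called for the interaction, 96 of them higher. With sample quality weights the interaction of Cxcl10 was called as well (2.56, adjusted p = 0.00288), where 2556 genes were called.

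Cxcl16 rose in both genotypes to a similar level. The gene lies on the minus strand of chromosome 11 (chr11:70453983-70459984). Its span overlaps that of Zmynd15 on the plus strand (chr11:70459433-70466202), so reads of this pair may also not be fully separated. Zmynd15 is not analysed here. It was 0.632, 0.538 and 0.725 FPKM in WT control (0.632 ± 0.0936, SD, n = 3) and 0.872, 0.697 and 0.654 FPKM in AHR CKO control (0.741 ± 0.116, SD, n = 3). With cuprizone it was 10.4, 8.34 and 10.2 FPKM in WT (9.63 ± 1.12, SD, n = 3) and 5.07, 7.71 and 12.6 FPKM in AHR CKO (8.46 ± 3.81, SD, n = 3). All 6 control libraries were under 1 FPKM and all 6 cuprizone libraries above 5 FPKM, so Cxcl16 entered the test only through the cuprizone libraries. The WT values with cuprizone lay close together, whereas the AHR CKO values spread on both sides of them.

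The rise of Cxcl16 was 15.2-fold in WT (log2 change 2.70, 95% interval 2.22 to 3.18, adjusted p = 1e-05) and 11.4-fold in AHR CKO (2.37, 95% interval 1.88 to 2.85, adjusted p = 4.18e-05). Neither the genotypes in cuprizone tissue (−0.24, 95% interval −0.73 to 0.24, adjusted p = 0.449) nor the 2 rises (interaction −0.33, adjusted p = 0.806) were called different. The first of these rests on AHR CKO cuprizone 3, the highest library. Without it Cxcl16 was lower in AHR CKO (−0.54, adjusted p = 0.0357), as it was with only the AHR CKO libraries under 2 FPKM of Cx3cr1 (−0.80, adjusted p = 0.0253), while the set above 2 FPKM gave 0.04 (adjusted p = 0.916).

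Cxcl12, the most studied ligand of Cxcr4, stood between 16.2 and 28.4 FPKM in all libraries and was called for genotype in cuprizone tissue, lower in AHR CKO. It lies on the plus strand of chromosome 6 (chr6:117168535-117181367). Values were 21.3, 20.6 and 21.1 FPKM in WT control (21.0 ± 0.357, SD, n = 3) and 21.7, 17.4 and 22.6 FPKM in AHR CKO control (20.6 ± 2.8, SD, n = 3). With cuprizone they were 26.6, 25.4 and 28.4 FPKM in WT (26.8 ± 1.5, SD, n = 3) and 16.2, 17.4 and 24.4 FPKM in AHR CKO (19.3 ± 4.46, SD, n = 3). The 3 WT cuprizone libraries were the highest of all 12, and the AHR CKO cuprizone libraries overlapped both control groups.

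In cuprizone tissue Cxcl12 was 1.39-fold lower in AHR CKO than in WT (log2 difference −0.47, 95% interval −0.77 to −0.17, adjusted p = 0.0331). That call is fragile: it was lost without WT cuprizone 1 (adjusted p = 0.0789), WT cuprizone 3 (0.101), AHR CKO cuprizone 1 (0.136) or AHR CKO cuprizone 2 (0.102), and when only the groups compared were fitted (0.0806). With AHR CKO libraries above 2 FPKM of Cx3cr1 the difference was −0.36 (adjusted p = 0.137), and with those under it −0.69 (adjusted p = 0.0128). The rise in WT, 0.33 (95% interval 0.04 to 0.63), was not called (adjusted p = 0.124) although its groups did not overlap. It was called without AHR CKO cuprizone 3 (adjusted p = 0.0391), a library that enters this comparison only through the shared estimate of spread. The rise was also called when only the groups compared were fitted (adjusted p = 0.0286) and with sample quality weights (adjusted p = 0.00721). In 20 of 24 alternative fits the outcome was the same as in the main fit. The remaining fit that differed used a single Cx3cr1 set of the AHR CKO libraries, which again enter only through the spread. Cuprizone against control in AHR CKO gave −0.10 (adjusted p = 0.709), and the interaction was not called (−0.43, adjusted p = 0.514).

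Cxcl14 was the most abundant of the 5 members in FPKM, and rose modestly with cuprizone in WT. It lies on the minus strand of chromosome 13 (chr13:56288643-56296551). Values were 61.5, 54.0 and 63.7 FPKM in WT control (59.7 ± 5.11, SD, n = 3) and 73.8, 91.9 and 76.7 FPKM in WT cuprizone (80.8 ± 9.72, SD, n = 3). In AHR CKO they were 65.9, 76.2 and 79.0 FPKM in control (73.7 ± 6.89, SD, n = 3) and 82.3, 86.3 and 77.1 FPKM in cuprizone tissue (81.9 ± 4.62, SD, n = 3). WT control was the lowest group and overlapped none of the others, and the remaining 3 groups overlapped one another.

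The rise of Cxcl14 in WT was 1.35-fold (log2 change 0.43, 95% interval 0.20 to 0.66, adjusted p = 0.015). It was lost without WT control 2, the lowest library (0.36, adjusted p = 0.0675), or without WT cuprizone 2, the highest (0.33, adjusted p = 0.0519). The change in AHR CKO was 0.15 (adjusted p = 0.423), and the difference between the genotypes was 0.30 in control (adjusted p = 0.101) and 0.02 in cuprizone tissue (adjusted p = 0.891). The interaction was not called (−0.27, adjusted p = 0.604), so a rise in WT alone is not shown.

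The window before Cxcl14 (GRCm38.p6, chr13:56296552-56296801, minus strand) is shown beside that of Cxcl10 because it also holds an interferon-stimulated response element while the gene moved little. Capitals mark an interferon gamma activated site of the form TTCNNNGAA, the interferon element and the AHR core GCGTG at 2 places.
Cxcl14 promoter: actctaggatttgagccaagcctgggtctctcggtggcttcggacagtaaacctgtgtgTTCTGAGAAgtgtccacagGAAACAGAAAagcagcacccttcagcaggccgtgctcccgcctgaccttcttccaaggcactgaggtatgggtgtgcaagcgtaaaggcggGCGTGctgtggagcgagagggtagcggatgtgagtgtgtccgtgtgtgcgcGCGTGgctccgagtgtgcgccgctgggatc

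TTCNNNGAA lies 191 to 183 bases and the interferon element 172 to 163 bases before the start, and the AHR cores lie 81 to 77 and 30 to 26 bases before it. Over all windows TTCNNNGAA occurred in 7.02%. In the window before Cxcl12 (chr6:117168285-117168534, plus strand) none of the 4 motifs was found.

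Cxcr4, the receptor of Cxcl12, a G protein-coupled receptor, rose with cuprizone in both genotypes. In the main fit its ligand was not called in either. It lies on the minus strand of chromosome 1 (chr1:128588199-128592293). Values were 2.81, 3.24 and 2.92 FPKM in WT control (2.99 ± 0.223, SD, n = 3) and 2.70, 2.87 and 1.95 FPKM in AHR CKO control (2.51 ± 0.49, SD, n = 3). With cuprizone they were 10.7, 6.59 and 8.39 FPKM in WT (8.55 ± 2.05, SD, n = 3) and 8.30, 10.5 and 13 FPKM in AHR CKO (10.6 ± 2.37, SD, n = 3). No cuprizone library overlapped a control library, and the genotypes overlapped in both treatments.

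The rise of Cxcr4 was 2.86-fold in WT (log2 change 1.24, 95% interval 0.85 to 1.63, adjusted p = 0.000419) and 4.24-fold in AHR CKO (1.72, 95% interval 1.33 to 2.11, adjusted p = 7.89e-05). Genotypes were not called different in control (−0.19, adjusted p = 0.511) or in cuprizone tissue (0.29, 95% interval −0.10 to 0.68, adjusted p = 0.263), nor was the interaction (0.48, adjusted p = 0.586). Either set of AHR CKO libraries gave a called rise, 1.72 above 2 FPKM of Cx3cr1 (adjusted p = 0.00665) and 1.49 under it (adjusted p = 0.0256). The window before Cxcr4 (GRCm38.p6, chr1:128592300-128592549, minus strand) is shown because this gene rose in both genotypes. Capitals mark its only match, the AHR core GCGTG, 39 to 35 bases before the start.
Cxcr4 promoter: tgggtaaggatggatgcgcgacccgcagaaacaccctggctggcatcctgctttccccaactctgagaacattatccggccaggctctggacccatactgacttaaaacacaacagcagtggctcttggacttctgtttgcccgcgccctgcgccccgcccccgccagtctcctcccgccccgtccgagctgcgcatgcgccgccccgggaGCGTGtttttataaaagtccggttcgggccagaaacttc

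**Figure D1:**
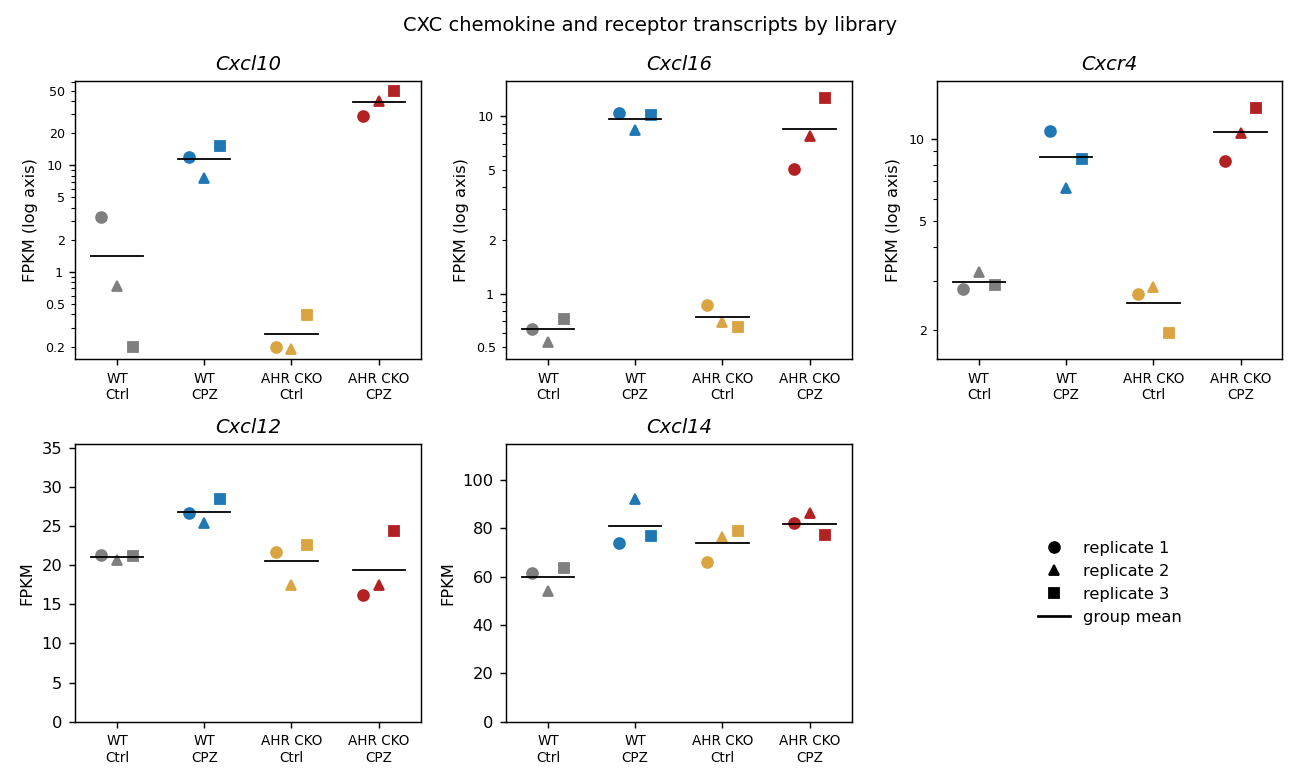
FPKM of Cxcl10, Cxcl12, Cxcl14, Cxcl16 and Cxcr4 in each of the 12 libraries (vertical axes, FPKM, on a log scale for Cxcl10, Cxcl16 and Cxcr4), as points by group with the group mean as a line. Cxcl10, Cxcl16 and Cxcr4 stand above all control libraries in every cuprizone library, with Cxcl10 at 28.9 to 49.1 FPKM in AHR CKO cuprizone against 7.51 to 15.1 FPKM in WT cuprizone.

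Read side by side, 4 of the 5 members were called with cuprizone in WT, all higher, where 16.9% of all tested genes were called and 9.08% were higher. In AHR CKO 3 of the 5 were called higher, where 10.2% were called and 7.22% were higher. Cxcl16 entered the test only through cuprizone libraries and Cxcl10 almost only through them, so these counts describe the members and carry no test. No member was called between genotypes in control tissue (6.19% of all genes were called). In cuprizone tissue Cxcl10 was called higher and Cxcl12 lower in AHR CKO, against 9.14% and 10.8% of all genes called in those directions. That balance depends on the scaling: 1257 of the 2747 genes called for genotype in cuprizone tissue were higher, against 629 of 2939 after rescaling to a common total (TPM). Cxcl10 and Cxcl12 kept their directions and calls there. The split also moved for cuprizone in AHR CKO, from 993 higher of 1403 to 794 of 1316 with TPM and 924 of 1524 with quantile normalization, and for genotype in control tissue, from 196 of 851 to 270 of 815 with quantile normalization. Genotype calls are common in cuprizone tissue, at 20.0% of tested genes, so 2 of 5 members is not far from that background. Groups did not overlap for 5 members with cuprizone in WT (34.7% of all genes), 3 in AHR CKO (28.9%), Cxcl14 for genotype in control tissue (35.4%) and Cxcl10 and Cxcl12 for genotype in cuprizone tissue (38.8%). Comparisons that share a group, such as cuprizone in WT and genotype in cuprizone tissue, are not independent of each other.

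**Figure D2:**
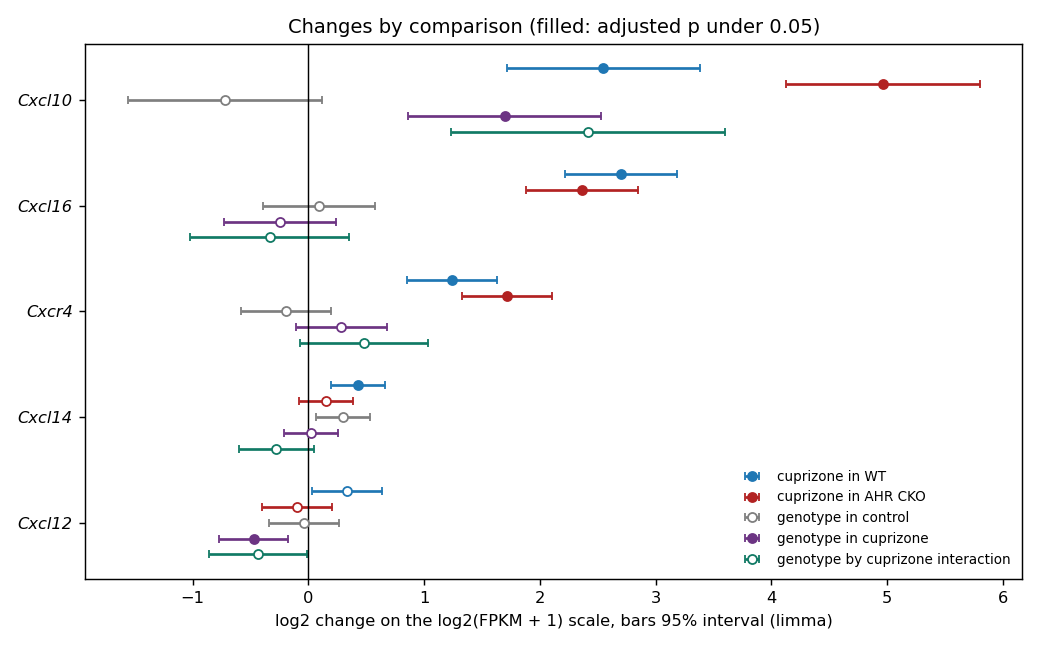
Log2 change of each member on the log2(FPKM + 1) scale with its 95% interval (horizontal axis) in the 5 comparisons. In WT the intervals of Cxcl10 (1.71 to 3.38), Cxcl16 and Cxcr4 lie well above 0, and in cuprizone tissue only those of Cxcl10 (above 0) and Cxcl12 (below 0) exclude 0 for the genotypes.

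Among other CXC chemokines, Cxcl5, a neutrophil attractant, rose with cuprizone in both genotypes. It was 1.69, 2.29 and 0.803 FPKM in WT control and 10.3, 15.1 and 8.82 FPKM in WT cuprizone, and 1.33, 2.04 and 1.38 FPKM in AHR CKO control and 4.08, 4.56 and 10.8 FPKM in AHR CKO cuprizone. Cuprizone libraries were all above the control libraries. The rise was 2.27 on the log2 scale in WT (adjusted p = 0.000288) and 1.44 in AHR CKO (adjusted p = 0.0112), the latter lost when 1 control library was left out (adjusted p = 0.0511). Pf4, platelet factor 4, was not called (0.764 to 2.43 FPKM in AHR CKO cuprizone, and a log2 change of −0.58 there).

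Of 4 other chemokine receptors tested, none was called in any comparison. Ackr3, the scavenging receptor of Cxcl12, was 5.97, 7.65 and 6.57 FPKM in WT control and 7.11, 5.11 and 7.42 FPKM in WT cuprizone. In AHR CKO Ackr3 was 9.69, 8.4 and 8.49 FPKM in control and 7.39, 7.64 and 8.98 FPKM in cuprizone tissue. Ackr1, a receptor that binds many chemokines without signalling, stood between 28.2 and 40.5 FPKM over all 12 libraries.

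Other binding partners and processing enzymes moved differently. The cytokine Mif binds Cd74 and Cxcr4, and Cd74, its receptor, rose 28.5-fold with cuprizone in WT (log2 change 4.27, adjusted p = 0.000147) and 15.7-fold in AHR CKO (3.80, adjusted p = 0.000639). Cd74 was 46.1 FPKM in the AHR CKO cuprizone library under 2 FPKM of Cx3cr1 and 99.7 and 119 FPKM in the others. With the low set alone its rise was not called (3.38, adjusted p = 0.061). Cd44, a co-receptor, went from 0.703, 0.931 and 1.2 FPKM to 8.78, 6.69 and 8.24 FPKM in WT and from 1.15, 1.76 and 1.01 FPKM to 6.03, 7.88 and 11.9 FPKM in AHR CKO. Both rises of Cd44 were called, at 2.20 and 2.03 (adjusted p = 2.01e-05 and 6.86e-05).

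Mif itself was not called with cuprizone in WT, where it was 318, 336 and 350 FPKM in control and 351, 359 and 351 FPKM in cuprizone tissue. In AHR CKO it was 408, 458 and 525 FPKM in control and 671, 493 and 448 FPKM in cuprizone tissue. Every AHR CKO library was above every WT library of its treatment, and the genotype difference was called in cuprizone tissue (0.58, adjusted p = 0.0179) but lost without any of 3 libraries in turn (adjusted p up to 0.0565).

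Adam10 and Adam17, chosen here after their values were seen, are metalloproteases that can release Cxcl16 from the membrane. Adam10 was 28.8, 29.5 and 27.2 FPKM in WT control and 28.3, 27.2 and 29.4 FPKM in WT cuprizone, against 21.6, 20.5 and 17.6 FPKM in AHR CKO control and 16.5, 20.0 and 21.4 FPKM in AHR CKO cuprizone. All 6 AHR CKO libraries were below all 6 WT libraries. The difference was −0.54 in cuprizone tissue (adjusted p = 0.00847) and −0.50 in control (adjusted p = 0.0307), where leaving out any of 5 libraries ended the call (adjusted p up to 0.121). Adam17 was called lower in AHR CKO in cuprizone tissue (−0.50, adjusted p = 0.0337), a call that ended without any of 4 libraries (adjusted p up to 0.137). Among the 5 proteases tested, Furin was the only gene called for cuprizone, and it rose in WT (0.39, adjusted p = 0.00936). For genotype, 2 of them were called lower in AHR CKO in cuprizone tissue, where 10.8% of all tested genes were called lower. In control tissue 1 was called lower, where 6.19% of all tested genes were called in either direction. None was called higher. The mean of Mmp14, chosen after its values were seen, was 9.9 FPKM in AHR CKO control against 6.6 FPKM in WT control.

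**Figure D3:**
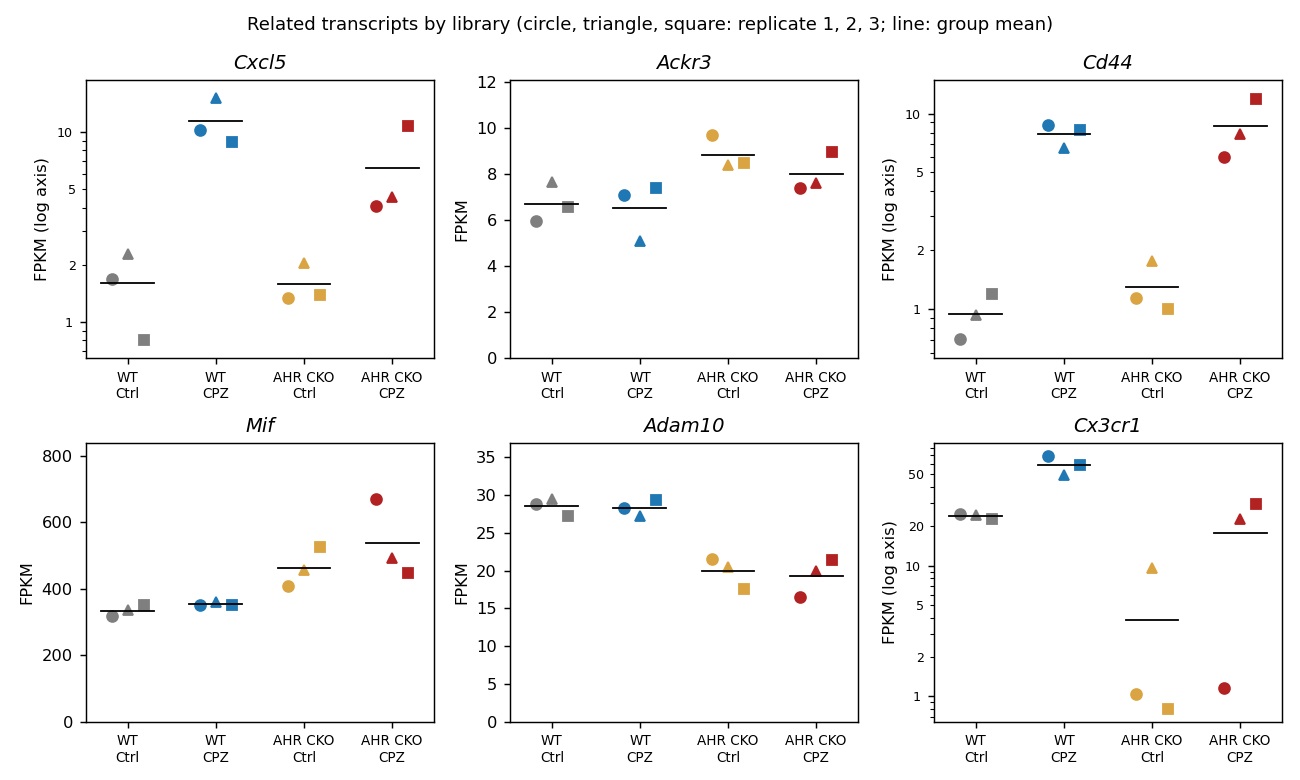
FPKM of Cxcl5, Ackr3, Cd44, Mif, Adam10 and Cx3cr1 (vertical axes) in each of the 12 libraries by group, with group means as lines. Adam10 sits lower in all AHR CKO libraries (16.5 to 21.6 FPKM) than in all WT libraries (27.2 to 29.5 FPKM), and Cx3cr1 is close to 1 FPKM in 3 of the 6 AHR CKO libraries.

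Genes that carry the signal from chemokine receptors into the cell were followed as a list of 24 tested genes. Of these, 11 were called higher and 2 lower with cuprizone in WT, and 7 higher and 1 lower in AHR CKO, with a median log2 change of 0.25 in WT and 0.05 in AHR CKO against −0.04 and −0.01 over all genes. Over all tested genes 9.08% were called higher and 7.81% lower in WT, and 7.22% higher and 2.98% lower in AHR CKO. Itgb2, an integrin chain that leukocytes use to adhere, rose in both genotypes, from between 2.97 and 3.32 FPKM to between 19.2 and 30.9 FPKM in WT and from between 2.80 and 3.22 FPKM to between 11.0 and 24.8 FPKM in AHR CKO (log2 change 2.51 and 2.17). Dock2, a guanine nucleotide exchange factor of haematopoietic cells that activates Rac, rose by 1.64 and 1.30, and Rac2 by 1.60 and 1.40. Rgs10, which shortens G protein signals, rose by 0.92 and 0.68. Gnai1, a G protein alpha chain chosen after its values were seen, was called lower in both (−0.73 and −0.52). The call in AHR CKO ended without AHR CKO control 2 (adjusted p = 0.0541). It also ended with either set of AHR CKO libraries split by Cx3cr1, each of which leaves 1 library in a group.

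Genes of the interferon and NF-kB pathways, which are known to act on Cxcl10, were followed in the same way. Of 21 tested genes, 12 were called higher and none lower with cuprizone in WT, and 13 higher and none lower in AHR CKO, against 9.08% and 7.22% of all tested genes called higher. The median changes were 0.70 and 0.69, against −0.04 and −0.01 over all genes. Irf8, a transcription factor of macrophages and microglia, rose by 2.54 in WT and 2.12 in AHR CKO, Irf5 by 1.55 and 1.13, Irf9 by 1.19 and 1.10 and Irf1 by 1.07 and 1.04.

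Irf7, an interferon-induced transcription factor chosen here after its values were seen, rose with cuprizone in both genotypes (log2 change 1.91 in WT and 2.45 in AHR CKO) and was called between genotypes in cuprizone tissue. It was 11.7, 5.46 and 12.1 FPKM in WT cuprizone and 21.2, 23.5 and 27.5 FPKM in AHR CKO cuprizone, with no overlap (log2 difference 1.29, adjusted p = 0.014). In control tissue Irf7 was 2.32, 1.49 and 1.44 FPKM in WT and 3.42, 5.80 and 2.18 FPKM in AHR CKO. With only AHR CKO libraries under 2 FPKM of Cx3cr1 the difference in cuprizone tissue was 1.12 (adjusted p = 0.0796). Over the list, 3 genes were called higher in AHR CKO than in WT cuprizone tissue (Irf7, Rela and Nfkbia) and 2 lower (Jak1 and Jak2), and the calls of all but Irf7 ended when single libraries were left out.

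**Figure D4:**
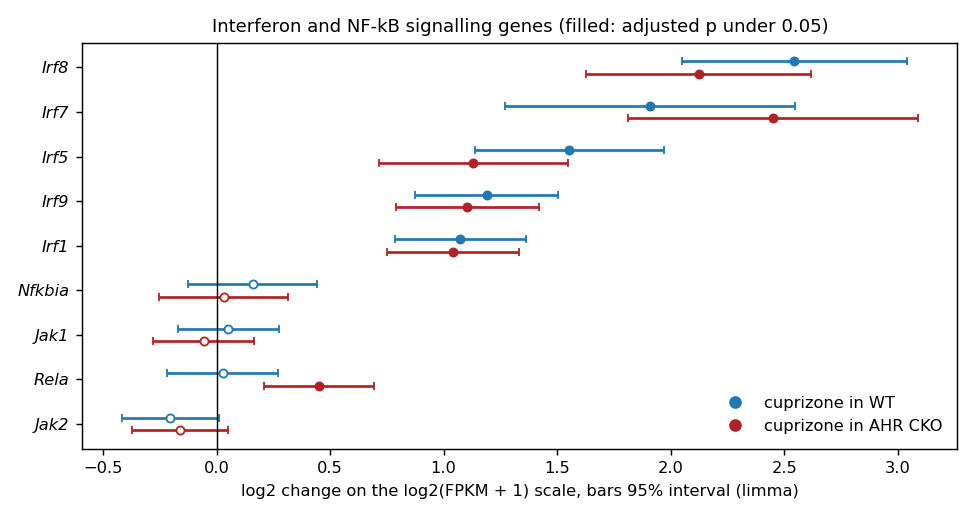
Log2 change of Irf8, Irf7, Irf5, Irf9, Irf1, Rela, Nfkbia, Jak1 and Jak2 with cuprizone (horizontal axis, log2(FPKM + 1) scale, points with 95% intervals) in WT and in AHR CKO, with filled points where the adjusted p was under 0.05. Irf8 and Irf7 lie farthest to the right in both genotypes, at 2.54 and 1.91 in WT and 2.12 and 2.45 in AHR CKO.

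In whole tissue, fewer cells of a type and less RNA per cell cannot be told apart, and several cell type lists moved with the members. Microglial genes summed to 355 to 392 FPKM in WT control and 328 to 342 FPKM in AHR CKO control, and to 1234 to 1785 FPKM in WT cuprizone and 859 to 1369 FPKM in AHR CKO cuprizone. Of 12 microglial genes, 6 were called higher with cuprizone in each genotype (9.08% of all tested genes in WT and 7.22% in AHR CKO), among them Trem2 (7.46-fold in WT and 5.27-fold in AHR CKO) and C1qb (5.56-fold and 4.29-fold). In cuprizone tissue 3 were called lower in AHR CKO (10.8% of all tested genes), among them Csf1r, chosen after its values were seen (−0.71, adjusted p = 0.0395), the opposite direction to Cxcl10. The call of Csf1r ended without any of 8 libraries in turn (adjusted p up to 0.133). Astrocyte genes summed to 953 to 1103 FPKM in WT control and 1953 to 2458 FPKM in WT cuprizone, and to 791 to 932 FPKM in AHR CKO control and 1388 to 2230 FPKM in AHR CKO cuprizone. Of 9 astrocyte genes, 6 were called higher and 1 lower with cuprizone in WT, and 4 higher and 0 lower in AHR CKO. Over all tested genes 9.08% were called higher and 7.81% lower in WT, and 7.22% and 2.98% in AHR CKO. Gfap rose 5.84-fold in WT and 6.22-fold in AHR CKO. Slc1a2, chosen after its values were seen, had lower means with cuprizone, from 374 to 349 FPKM in WT and from 250 to 198 FPKM in AHR CKO. The part of these cells in the rise of Cxcl10, Cxcl16 and Cxcr4 was not tested.

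The markers of T cells were few. Of the 10 T cell genes listed, Cd4, Cd8a and Lck were measured, and Cd4 alone was tested. Cd4 ran from 2.15 FPKM in WT cuprizone 2 to 19.1 FPKM in WT control 3 and was not called in any comparison. These 2 libraries also had the lowest and the highest striatal sum of all libraries (429 and 2669 FPKM). In each group the library with the lowest striatal sum also had the least Cd4. Cd4 is therefore not read here as a measure of T cells, and the part of striatal content in it was not tested. Cd8a reached at most 0.517 FPKM and Lck at most 1.28 FPKM. From control to cuprizone the mean of Cd8a went from 0.0988 to 0.341 FPKM in WT and from 0.0459 to 0.433 FPKM in AHR CKO. That of Lck went from 0.595 to 1.06 FPKM and from 0.582 to 1.03 FPKM. The border macrophage and monocyte list summed to 2.01 to 2.20 FPKM in WT control and 2.59 to 4.48 FPKM in WT cuprizone. In AHR CKO it summed to 1.18 to 2.02 FPKM in control and 3.43 to 5.97 FPKM in cuprizone tissue. Of its 7 genes measured, 5 were under 1 FPKM in all 12 libraries and 2 were tested. The sum thus rests on values near the limit of detection, and its genes did not all move the same way. Choroid plexus genes are a sign of how much choroid plexus a piece of tissue holds. They summed to 43.8 to 157 FPKM in WT control and 57.6 to 2997 FPKM in WT cuprizone. In AHR CKO they summed to 417 to 3597 FPKM in control and 1013 to 3749 FPKM in cuprizone tissue. Cxcl14 was highest, at 91.9 FPKM, in WT cuprizone 2, the library of that group with the lowest choroid plexus sum, 57.6 FPKM. That library also had the highest inhibitory interneuron sum of its group (1585 FPKM). WT control 2, with the least Cxcl14, had the lowest interneuron sum of WT control (1223 FPKM). Between groups, WT control was lowest both in Cxcl14 (54.0 to 63.7 FPKM) and in the median choroid plexus sum (92.5 FPKM). That median was 990 FPKM in WT cuprizone, 1896 FPKM in AHR CKO control and 2842 FPKM in AHR CKO cuprizone. The median inhibitory interneuron sum was 1403 FPKM in WT control and 1177 FPKM in WT cuprizone. The part of choroid plexus or interneuron content in Cxcl14 was not tested. Of 9 endothelial genes none was called for cuprizone in either genotype, for genotype in control tissue or for the interaction. In cuprizone tissue 1 was called lower in AHR CKO, Flt1, a receptor for vascular endothelial growth factor that is named for this call (5.71, 5.47 and 7.78 FPKM against 10.2, 9.23 and 9.75 FPKM in WT, log2 difference −0.56, adjusted p = 0.0133). The call of Flt1 ended without AHR CKO cuprizone 1 (adjusted p = 0.0577).

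**Figure D5:**
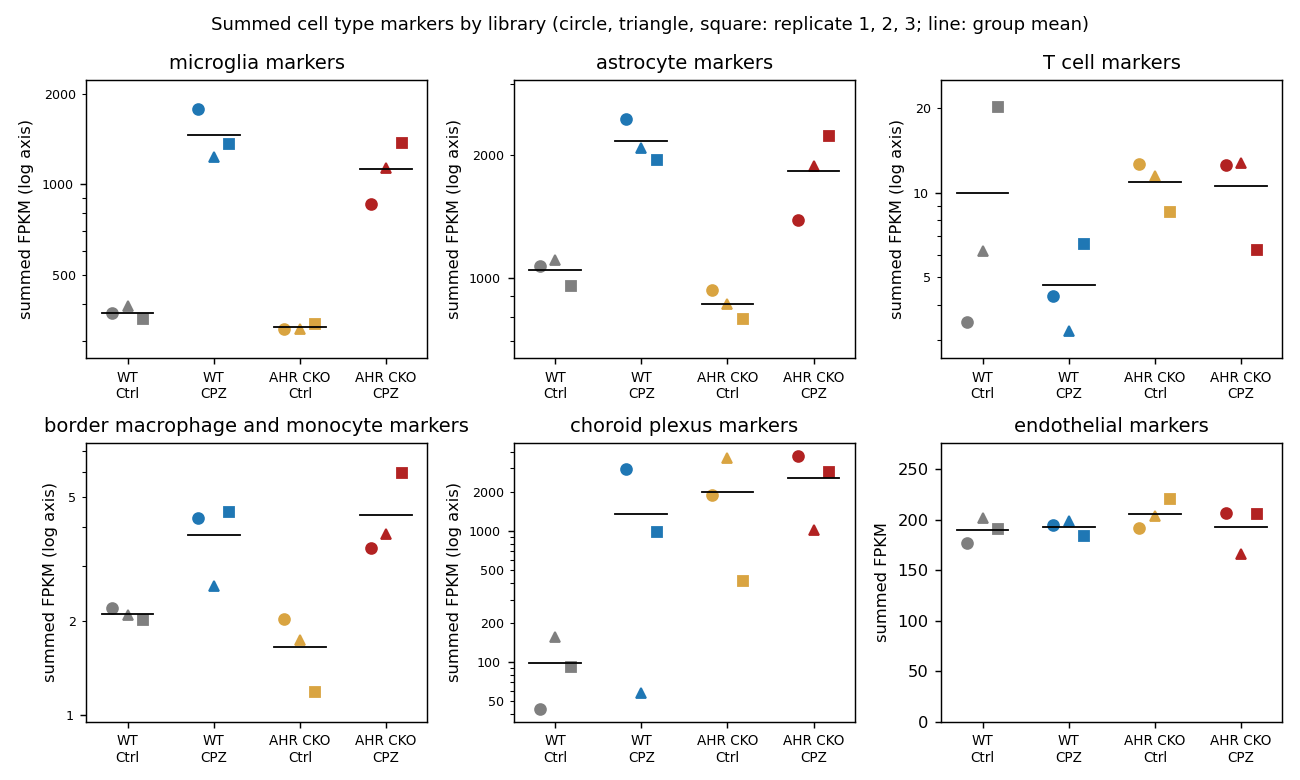
Summed FPKM of 6 marker lists (microglia, astrocyte, T cell, border macrophage and monocyte, choroid plexus, endothelial) in each of the 12 libraries by group (vertical axes on a log scale except for endothelial markers, lines for group means). Microglial and astrocyte sums are higher in all cuprizone libraries than in control libraries of the same genotype, and the choroid plexus sum varies between 43.8 and 3749 FPKM within and between groups. Cd4 is the largest part of the T cell sum in every library.

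The genes whose pattern over the 12 libraries was most like each member were found by the root mean square difference of centred log2(FPKM + 1) values, a description in which all genes share the libraries. For Cxcl10 these were Ccl5, a chemokine for T cells (0.576), the transglutaminase Tgm1 (0.66) and Lgals3, galectin 3 (0.777), against 2.041 for the spread of Cxcl10 about its own mean. Ccl5 had group means of 1.42, 12.9, 0.609 and 22.1 FPKM in WT control, WT cuprizone, AHR CKO control and AHR CKO cuprizone. For Cxcl16 they were Tlr2 (0.146), Slc15a3 (0.185) and the protease Ctss (0.186), against 1.294. Tlr2, a receptor for bacterial lipoproteins, had group means of 0.714, 9.52, 0.625 and 8.59 FPKM in the same order.

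For Cxcr4 the nearest genes were Emp1 (0.129), the tumour necrosis factor receptor Tnfrsf1a (0.148) and the interferon-induced GTPase Igtp (0.158), against a spread of 0.775. Cxcl12 and Cxcl14 varied far less, so their nearest genes are less particular to them. Those of Cxcl12 were Gyk (0.09), Traf3 (0.105) and Clip1 (0.112), against 0.233, and those of Cxcl14 were Wnt7b (0.093), Arpc4 (0.095) and Fkbpl (0.097), against 0.209. Traf3, an adaptor of immune receptors, had group means of 11.8, 15.9, 10.8 and 10.6 FPKM, with the highest mean in WT cuprizone as in Cxcl12.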

How the data were processed

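RNA-seq of mouse corpus callosum gave 12 libraries in 4 groups of 3, assigned by the labels' genotype and treatment. A single table of gene symbols and FPKM values was deposited by the authors, per the file headers. The submitters' processing notes name GRCm38 (mm10) as the build. The sources used here name no aligner, quantifier, annotation or use of strand. This unit removes transcript length but lets abundant genes shift others, and no count test was run. Depth was estimated from the steps of FPKM times length in 30 to 62 genes per library, out of 1134 genes with 1 transcript longer than 1500 nt.

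Genes of at least 1 FPKM in at least 3 libraries were tested (13759) on log2(FPKM + 1) with limma 3.58.1 in R 4.3.3, using all 4 groups, eBayes with trend and two-sided p-values adjusted by Benjamini-Hochberg within each of 5 comparisons. With 3 libraries against 3 an exact permutation test cannot go below p = 0.1, so none was used. On simulated data for the WT cuprizone comparison (13759 genes) the fit recovered 84% of changes of size 1 and 98% of size 2 on the log2 scale. The simulated noise was independent between genes, so these figures do not cover variation shared by many genes of a library.

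The members and the 25 lists (234 symbols, 185 in the table, 4 under an older name) were chosen with earlier results of these data known. Genes named are the members and any gene of the lists of other CXC chemokines, other receptors and Mif with its receptors. From each other list, up to 4 genes called for cuprizone with the smallest adjusted p are named. Where none was called, the 2 most abundant are. Others named are said to be chosen after their values were seen or named for a call, or stand beside a result that turns on them. Positions are from GENCODE M21 and promoter windows from RefSeq GRCm38.p6, which matched 4 of 5 members. Replicate numbers are a name only, since same-numbered libraries did not deviate together. Results for some single genes are not reported here, and those genes stay in the counts of their lists.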

Additional observations from a re-analysis of the deposited data

How the results depend on the processing

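The cuprizone calls of Cxcl10, Cxcl16 and Cxcr4 kept their direction and stayed called under every alternative that gave a value. Cxcl16 gave none with a mean FPKM of at least 5. The number of members called for genotype in cuprizone tissue was 2, and became 1 with a pseudocount of 0.1, 4 with sample quality weights, 1 with only the groups compared and 0 with only AHR CKO libraries over 2 FPKM of Cx3cr1, a split chosen after seeing the data. Leaving out each library gave 1 to 3 there, 3 to 5 for cuprizone in WT, 3 in AHR CKO, 0 for genotype in control and 0 to 1 for the interaction. Sample quality weights called 2 members for genotype in control and 2 for the interaction.

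Over all genes, sample quality weights called 5100 genes for cuprizone in WT, 4846 in AHR CKO, 4477 for genotype in control, 8036 in cuprizone tissue and 2556 for the interaction. The main counts were 2324, 1403, 851, 2747 and 5. With a mean FPKM of at least 5, 901 genes were called for cuprizone in AHR CKO. Fitting only the groups compared gave 127 for genotype in control and 1070 in cuprizone tissue. The interaction gave 1 without a filter, 8 with TPM and 2 without a trend. Leaving out each library gave 1594 to 2439 for cuprizone in WT, 840 to 1553 in AHR CKO, 4 to 1428 for genotype in control, 777 to 3305 in cuprizone tissue and 0 to 103 for the interaction. AHR CKO libraries over 2 FPKM of Cx3cr1 alone gave 481 genes for cuprizone in AHR CKO, 1 for genotype in control, 606 in cuprizone tissue and 0 for the interaction, and those under it gave 270, 11 and 1 for the first, the second and the interaction. The causes were not tested, apart from the smaller number of libraries or genes that some of these settings use.

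Replicate numbers did not pair the libraries: between WT control and WT cuprizone the correlations of deviations were −0.23, 0.0735 and 0.241. With the replicate block 51 genes were called for genotype in control, 1806 in cuprizone tissue and 0 for the interaction, and no member gained or lost a call (Cxcl10 for genotype in cuprizone tissue had an adjusted p of 0.029, Cxcl12 of 0.0347). Rescaling to TPM moved the median of all genes for genotype in cuprizone tissue to −0.11, against which Cxcl12 was −0.61 and Cxcl10 1.61. Pf4 turned from −0.10 to 0.57 for genotype in cuprizone tissue with sample quality weights. Levels under 1 FPKM rest on few fragments, which limits the control values of Cxcl10 and Cxcl16.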
